A study of Eriocheir sinensis with 6 samples.

Results

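The regions described here are stretches of accessible chromatin that lie at the annotated starts of genes and were detected in all 3 ATAC-seq libraries of *Eriocheir sinensis* walking-leg muscle in the molt period. The peak intervals of Mu_E_1, Mu_E_2 and Mu_E_3 were merged wherever they overlapped, which gave 68059 merged regions. Of these, 29787 were touched by a peak of every library. A shared region was taken as a region at a start when it touched the 500 bp on either side of the annotated start of a gene whose identifier begins with evm. By this rule 4574 regions were found, or 15.4% of the shared regions, and the other 25213 shared regions are called regions elsewhere. No measured height or expression value entered the choice.

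The 6 libraries came from 3 crabs, and each crab gave a library for either assay. The crabs were healthy juvenile males of wild-type genotype, untreated, and in the period of shell shedding (period E). The design text of the series names the stage with another letter, D, and the sample titles and the study's methods give E, which is used here. An animal age was not given in the sources used here, and each crab's muscle was divided between the assays. All libraries belong to 1 condition, so nothing was compared between treatments. The spread given is that between the 3 crabs.

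Chromatin at the start of an active gene is usually depleted of nucleosomes, because the transcription machinery and the factors that recruit it occupy the DNA there. In ATAC-seq the Tn5 transposase cuts such exposed DNA, and a peak is an interval with more cuts than the surrounding sequence. Walking-leg muscle of crustaceans is striated muscle that loses and rebuilds protein around each molt so that the limb can be withdrawn from the old shell. The identifiers of this annotation carry no gene names in the files, so muscle markers could not be checked by name and most genes are given by identifier. DNA sequence of the regions was not analysed here.

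The ATAC-seq libraries held 44610 to 52473 peaks, and their read depth is not part of the peak lists. The study gives fewer mapped reads for Mu_E_2 than for either other library. The RNA-seq libraries held 7088747, 7524721 and 7788537 fragments assigned to genes, as recovered from FPKM (fragments scaled to the length of the gene model and to a library-wide divisor) and gene length. The authors' FPKM divisor was 0.573, 0.514 and 1.43 times these totals in Mu_E_1, Mu_E_2 and Mu_E_3. FPKM levels were therefore not on the same scale in the 3 libraries, and genes were compared within each library.

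The regions at starts belonged to 4589 of the 21314 annotated genes, which is 21.5% of them. Most of these genes, 4288, had 1 shared region at the start, while 298 had 2 and 3 had 3. In the other direction, 4262 regions touched the start window of 1 gene and 312 touched that of more than 1. Of these 312 regions, 248 had starts on opposite strands and 216 lay between genes that point away from each other, the arrangement of a bidirectional promoter. The nearest gene lay on the plus strand for 2270 regions and on the minus strand for 2304. The start itself lay inside the region in 3794 cases, or 82.9%. In 16 regions no base was covered by peaks of all 3 libraries. The far end of the same gene was also touched by 205 regions, and 358 regions belonged to genes spanning 1000 bp or less, for which the start and the end of the gene cannot be told apart well.

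Regions at starts were found on every chromosome with many genes. Of these regions, 96.5% lay on the 72 numbered chromosomes, compared with 72.4% of the shared regions elsewhere. Among the 71 chromosomes with 100 or more annotated genes, the share of genes with a shared region at the start ran from 10.1% to 29.4% with a median of 21.9%. On the unnumbered sequences, 161 of 689 genes had one, or 23.4%.

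Accessible regions at starts were found again in the other crabs more often than accessible regions elsewhere. In all, 6914 merged regions touched a start window in any library. Of these, 66.2% were touched by all 3 libraries, 982 by 2 and 1358 by only 1, or 19.6%. Among merged regions elsewhere, 41.2% were touched by all 3 libraries and 38.3% by only 1. In Mu_E_1, 81.1% of the peaks at starts lay in a region shared by all libraries, against 57.9% of its other peaks. In Mu_E_2 these shares were 85.6% and 70.2%, and in Mu_E_3 they were 78.4% and 59.5%. The difference was 19.1 ± 3.89 percentage points (SD, n = 3 libraries) and had the same sign in all 3. The two-sided exact sign-flip permutation test gave p = 0.25, which is the smallest value that 3 libraries allow, so no difference in this design can pass 0.05.

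The peaks at starts were higher over their background than peaks elsewhere. The fold enrichment is the ratio of the cuts at a summit to the local background, and the highest value inside a region was used. Its median at starts was 5.37, 5.66 and 5.88 in Mu_E_1, Mu_E_2 and Mu_E_3. For shared regions elsewhere the medians were 4.76, 4.90 and 4.79. The difference on the log2 scale was 0.18, 0.21 and 0.29, with a mean of 0.23 ± 0.06 (SD, n = 3; exact sign-flip p = 0.25). With the median instead of the highest fold enrichment inside a region the mean was 0.12. The difference was larger than its spread between libraries, but small beside the range of single regions. The middle 50% of the regions at starts ran from 4.14 to 7.38 in Mu_E_1, and that of the regions elsewhere from 3.56 to 6.59. The highest fold enrichments of all lay elsewhere. The maximum at starts was 23.3 and the maximum elsewhere was 47.7.

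The peaks at starts were also wider. The median width covered by a library's own peaks was 596, 563 and 647 bp at starts, and 473, 424 and 488 bp elsewhere. The difference was 123, 139 and 159 bp, with a mean of 140 ± 18.0 bp (SD, n = 3; exact sign-flip p = 0.25). The merged regions at starts were 200 to 3840 bp wide with a median of 739 bp, and those elsewhere had a median of 589 bp. A wide region has a better chance of touching a start window. With only regions whose midpoint lay inside the window the difference was 131.5 bp. More than 1 summit was called in 50.9%, 47.9% and 55.6% of the regions at starts, and in 36.2%, 30.0% and 37.3% of those elsewhere. Neighbouring summits inside a region at a start were a median of 318 bp apart, with the middle 50% of the 11002 pairs between 252 and 424 bp. The −log10 q-value followed the same order. Its median was 16.9, 15.3 and 21.0 at starts and 13.9, 10.9 and 14.1 elsewhere.

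**Figure D1:**
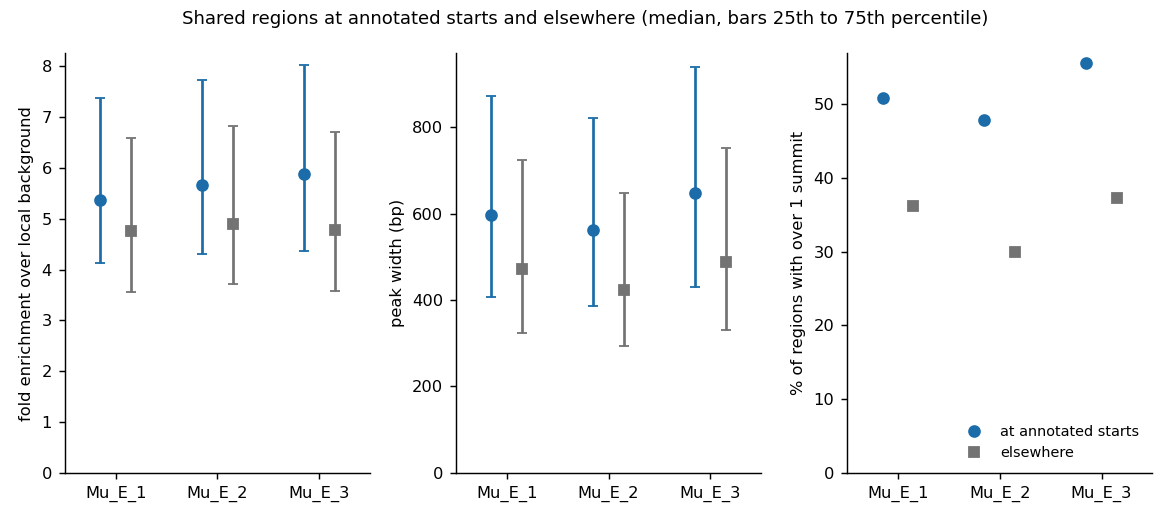
Fold enrichment (left), peak width in bp (middle) and the percentage of regions with more than 1 summit (right) in each ATAC-seq library, for the 4574 shared regions at annotated starts (blue circles) and the 25213 shared regions elsewhere (grey squares). Points are medians over regions and bars run from the 25th to the 75th percentile; at starts the median was higher in all 3 libraries, while the bars overlap.

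Distance to the start separated the regions further. The 3794 regions that covered the start had a median fold enrichment of 5.84 ± 0.29 (SD over the 3 libraries) and a median merged width of 779 bp. The 341 regions that stopped 1 to 250 bp short of it had 4.89 ± 0.11 and 598 bp. The 439 regions at 251 to 500 bp, just inside the limit of the rule, had 4.69 ± 0.24 and 519 bp. The 727 regions at 501 to 1000 bp, just outside it, had 4.73 ± 0.098 and 578 bp. At 1001 to 2000 bp the fold enrichment was 4.52 ± 0.15, and over 5000 bp it was 4.86 ± 0.08. In these medians the regions that covered the start stood apart, and the classes that stopped short of it had values between 4.52 and 4.89 whether near or far. A wide region is also more likely to cover a start. The part of width in these differences was not tested.

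**Figure D2:**
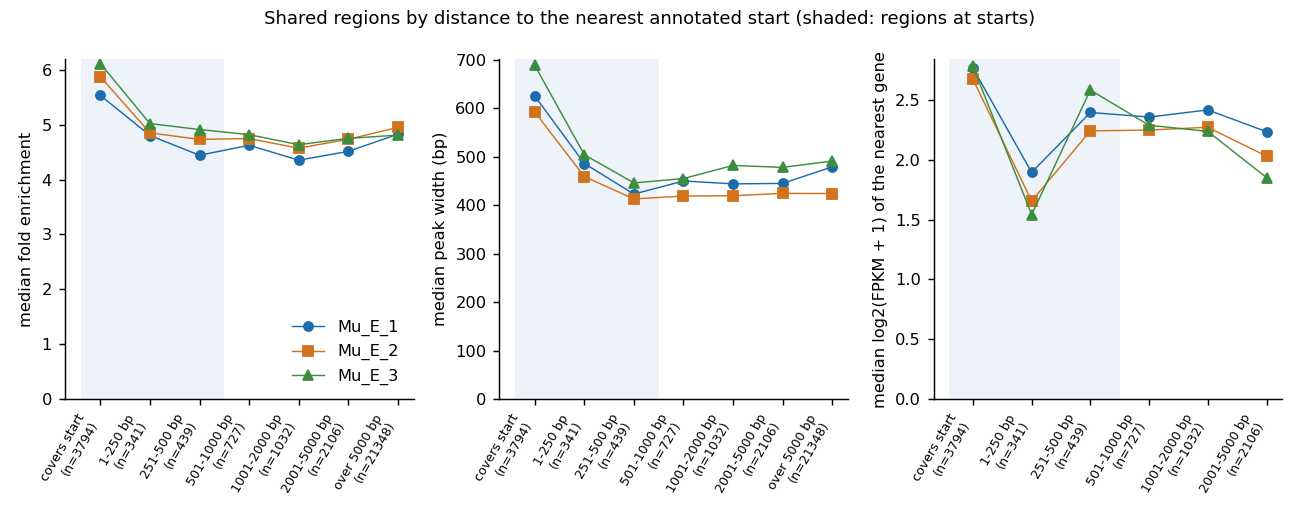
Median fold enrichment (left), median peak width in bp (middle) and median log2(FPKM + 1) of the nearest annotated gene (right) by the distance between the shared region and the start, for each library. The shaded classes are the regions at starts; the regions that cover the start (n = 3794) were highest and widest in every library, and the class at 1 to 250 bp had the lowest expression.

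The strongest summit was most often found close to the annotated start. Its position was counted along the strand of the gene, with negative values upstream. The median position was −16, −17 and −20 bp in Mu_E_1, Mu_E_2 and Mu_E_3. In these libraries 33.2%, 33.9% and 33.7% of the summits lay within 50 bp of the start, and 47.5%, 47.7% and 47.8% within 100 bp. The middle 50% ran from −189 to 60.75 bp in Mu_E_1, and was drawn out farther on the upstream side. Downstream of the start lay 42.2%, 42.4% and 40.8% of the summits, or 41.8 ± 0.87% (SD, n = 3). Set against 50%, the share was lower in 3 of 3 libraries (exact sign-flip p = 0.25).

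Plus-strand and minus-strand genes gave nearly the same picture. The median position was −17, −18 and −20.5 bp for plus-strand genes and −16, −16 and −19.5 bp for minus-strand genes. The difference of −1.33 ± 0.58 bp (SD, n = 3; exact sign-flip p = 0.25) is small beside the spread of single summits, and its sign turned when the window was set to 250 bp (0.33 bp) or 1000 bp (1.17 bp). The share downstream was 42.1%, 41.5% and 40.1% on the plus strand and 42.4%, 43.2% and 41.5% on the minus strand.

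**Figure D3:**
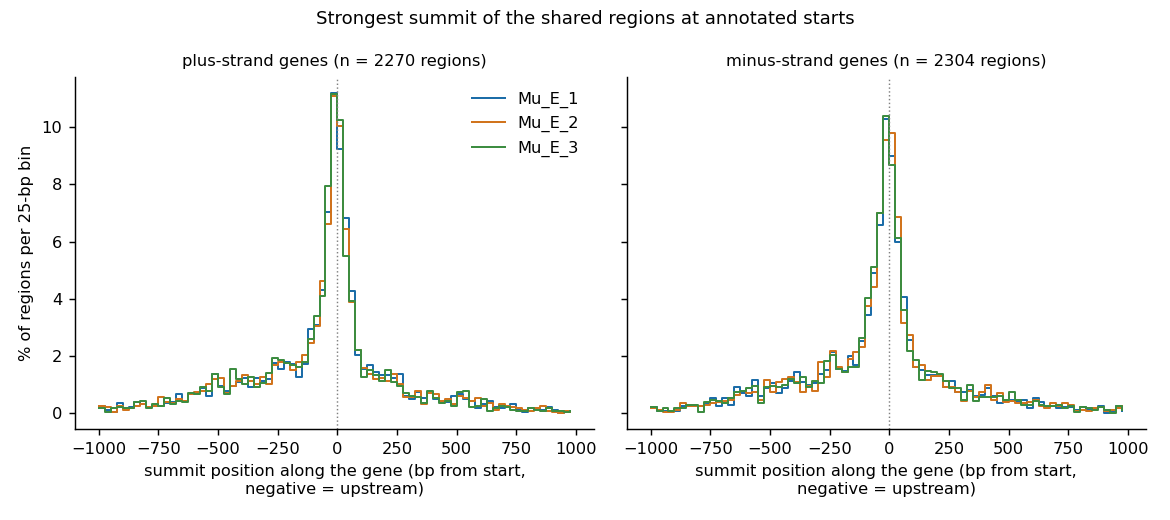
Position of the strongest summit along the gene, in bp from the annotated start with negative values upstream, for regions of plus-strand genes (left, n = 2270) and minus-strand genes (right, n = 2304). Lines give the percentage of regions per bin for each library; all 3 libraries peak at the start on both strands, with a longer shoulder upstream.

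The position depended on the kind of gene model. The length of 73.3% of all annotated models was a multiple of 3, as it is for a model that holds only coding sequence, so the annotated start of many genes may be the start of coding rather than of transcription. Among genes with a shared region at the start this share was 55.4%, and among the other genes it was 78.2%. For the 2488 regions whose nearest model had such a length, the median summit lay at −40, −41 and −43.5 bp, with 24.8%, 25.8% and 24.8% of the summits within 50 bp of the start. For the 2086 regions with another length, the median was −5, −4 and −7 bp, and 43.3%, 43.4% and 44.3% lay within 50 bp. More than 200 bp upstream lay 28.6%, 29.1% and 29.4% of the summits of the former and 19.1%, 18.8% and 19.1% of the latter. The values of both kinds of model did not overlap between libraries.

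The summits were placed alike in the 3 crabs. The 3 positions of a region spanned a median of 30 bp, with 14 bp at the lower and 135.75 bp at the upper quartile. In the 1486 regions with a single summit in each library the median span was 30 bp too. The fold enrichment of a region differed between its highest and lowest library by a median ratio of 1.28, with 1.64 at the 90th percentile and 3.11 at most. Across the 4574 regions, the Spearman correlation of fold enrichment was 0.811 for Mu_E_1 and Mu_E_2, 0.879 for Mu_E_1 and Mu_E_3, and 0.825 for Mu_E_2 and Mu_E_3. For the shared regions elsewhere it was 0.772, 0.858 and 0.786. These are descriptions across regions of the same libraries, which are not independent replicates. Fold enrichment and width of the same region were less closely related, with 0.399, 0.366 and 0.394 in the 3 libraries.

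A ratio above 2 between libraries was seen in 90 regions. The region with the largest was at evm.TU.CM024120.1.243, with a fold enrichment of 2.56, 7.98 and 5.52 in Mu_E_1, Mu_E_2 and Mu_E_3. Its strongest summit was a different one in Mu_E_1, at −199 bp, than in Mu_E_2 and Mu_E_3, at −749 and −806 bp. At evm.TU.CM024129.1.19 Mu_E_1 was again the low library, with 2.58, 7.14 and 6.82. Mu_E_2 was the high library at evm.TU.CM024099.1.266, with 3.28, 8.99 and 4.0, and at evm.TU.CM024107.1.299, with 4.68, 12.7 and 5.41. The last of these genes was listed at 0 FPKM in all 3 libraries. These 4 regions were chosen after their values were seen.

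Genes with a shared region at the start were more abundant in the RNA than genes without one. The median of these genes was 5.19, 4.70 and 5.24 FPKM in the 3 libraries. The 16725 annotated genes without one had medians of 0.461, 0.361 and 0.398. On the log2(FPKM + 1) scale, which understates the change of low genes, the difference was 2.08, 2.07 and 2.16, with a mean of 2.1 ± 0.05 (SD, n = 3; exact sign-flip p = 0.25). Among genes with a mean FPKM of 1 or more it was 0.61. In a bulk tissue, fewer cells that express a gene and less RNA per cell cannot be told apart. An FPKM of 1 or more was reached by 77.7%, 75.9% and 78.9% of the genes with such a region and by 42.2%, 40.0% and 41.2% of those without. Listed at 0 in all 3 libraries were 254 of the former, or 5.54%, and 4875 of the latter, or 29.1%. The genes with such a region were also longer on the genome, with a median span of 10457 bp against 6299 bp.

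Genes whose start was accessible in some but not all crabs lay in between. The 1909 genes whose start regions were found in only 1 or 2 libraries had median FPKM of 1.69, 1.52 and 1.72. These values lie between those of the genes with a shared region and those of the 14816 genes with no peak at the start in any library, which had 0.352, 0.255 and 0.284. The 301 genes with 2 or 3 shared regions at the start had medians of 6.12, 5.87 and 8.05, above the 5.15, 4.59 and 5.14 of genes with 1. The 596 genes that shared their region with another start had 4.03, 3.72 and 4.69, below the 5.33, 4.88 and 5.30 of the 4035 genes whose region touched their start alone.

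Read in the other direction, the share of genes with a shared region at the start was higher in each class of expression than in the class below it. It was 6.06 ± 0.60% (SD over the 3 RNA-seq libraries) of the genes listed at 0 FPKM and 15.8 ± 1.62% of those above 0 and up to 1. It was 29.5 ± 0.44% between 1 and 10, 39.2 ± 0.98% between 10 and 100, and 48.2 ± 4.14% between 100 and 1000. Above 1000 FPKM it was 64.1 ± 5.46%, from 59.9%, 62.2% and 70.3% of 177, 193 and 74 genes in Mu_E_1, Mu_E_2 and Mu_E_3. FPKM was not on the same scale in the 3 libraries. A class therefore held different cuts of expression, and its SD is not only the spread between crabs. Of the 100 annotated genes with the highest mean FPKM, 66 had a shared region at the annotated start and 34 had none.

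Within the regions at starts, genes with higher and wider regions had higher median expression. Regions at the start of 1 gene were ranked by mean log2 fold enrichment and divided into 4 groups of equal size. The median log2(FPKM + 1) of their genes, averaged over the libraries, was 2.19, 2.49, 2.91 and 2.90 from the lowest to the highest group. The highest minus the lowest group was 0.92, 0.86 and 0.34 in the 3 libraries, with a mean of 0.71 ± 0.32 (SD, n = 3; exact sign-flip p = 0.25). The difference was −0.021 when peaks with q-values above 1e-05 were left out, 0.27 with the median instead of the highest fold enrichment of a region, and 0.34, with the same sign in 2 of 3 libraries, among genes with a mean FPKM of 1 or more. In medians of FPKM the lowest group had 3.49, 3.16 and 4.12, and the highest group 7.52, 6.56 and 5.50. The genes at 0 in all libraries made up 9.30%, 4.97%, 3.19% and 4.22% of the 4 groups.

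Ranked by merged width, the groups had median log2(FPKM + 1) of 2.28, 2.43, 2.81 and 3.10 from the narrowest to the widest. The widest minus the narrowest group was 1.06, 1.11 and 0.30, with a mean of 0.82 ± 0.45 (SD, n = 3; exact sign-flip p = 0.25). Among genes with a mean FPKM of 1 or more the mean was 0.70 ± 0.45 (SD, n = 3). As with fold enrichment, the difference was smallest in Mu_E_3. In FPKM the narrowest group had medians of 3.66, 3.22 and 4.83, and the widest 8.69, 8.11 and 6.21.

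The difference in expression by the side of the start on which the summit lay was small and depended on the processing. Genes with the summit downstream were higher than genes with it upstream by 0.05, 0.26 and 0.15 on the log2(FPKM + 1) scale, with a mean of 0.15 ± 0.11 (SD, n = 3; exact sign-flip p = 0.25). The mean was −0.10 when the starts of all listed genes were used, 0.005 without the second ATAC-seq library, 0.25 when peaks with q-values above 1e-05 were left out and 0.40 for models whose length is not a multiple of 3. The distance from the start showed more. Genes of the 697 regions with the summit 1 to 50 bp downstream had a median of 3.06 ± 0.03. This was the highest of 10 classes of position, and in 1.29% of these regions the gene was at 0 in all libraries. The 784 regions with it up to 50 bp upstream had 2.56 ± 0.14 and 1.40%. The 248 regions with the summit more than 500 bp downstream had 2.1 ± 0.15, the lowest, and 15.7% at 0. The 411 regions with it more than 500 bp upstream had 2.78 ± 0.11 and 6.81%. With all regions at starts split by model length, the class more than 500 bp downstream was lowest in neither kind. It had 1.93 where the length is a multiple of 3, and 201 to 500 bp downstream had 1.76. It had 2.46 for other lengths, and 51 to 100 bp upstream had 1.99. Summits 1 to 50 bp downstream were highest in both kinds, with 3.09 and 3.12. Fold enrichment followed another order. It was 6.27 ± 0.37 for summits 51 to 100 bp upstream and 5.02 ± 0.055 for summits 101 to 200 bp downstream, the highest and the lowest class.

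Regions that covered the start had the highest expression by distance too. Their nearest genes had a median log2(FPKM + 1) of 2.74 ± 0.06, with 3.74% at 0 in all libraries. At 1 to 250 bp the median was 1.70 ± 0.18, with 17.9% at 0, and at 251 to 500 bp it was 2.40 ± 0.17, with 9.34% at 0. Beyond the limit of the rule, at 501 to 1000 bp, it was 2.30 ± 0.05. The order was thus not a steady fall with distance. Models with a length that is a multiple of 3 made up 52.3% of the covering class, 71.6% of the class at 1 to 250 bp and 62.4% of that at 251 to 500 bp, and their part in these differences was not tested.

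**Figure D4:**
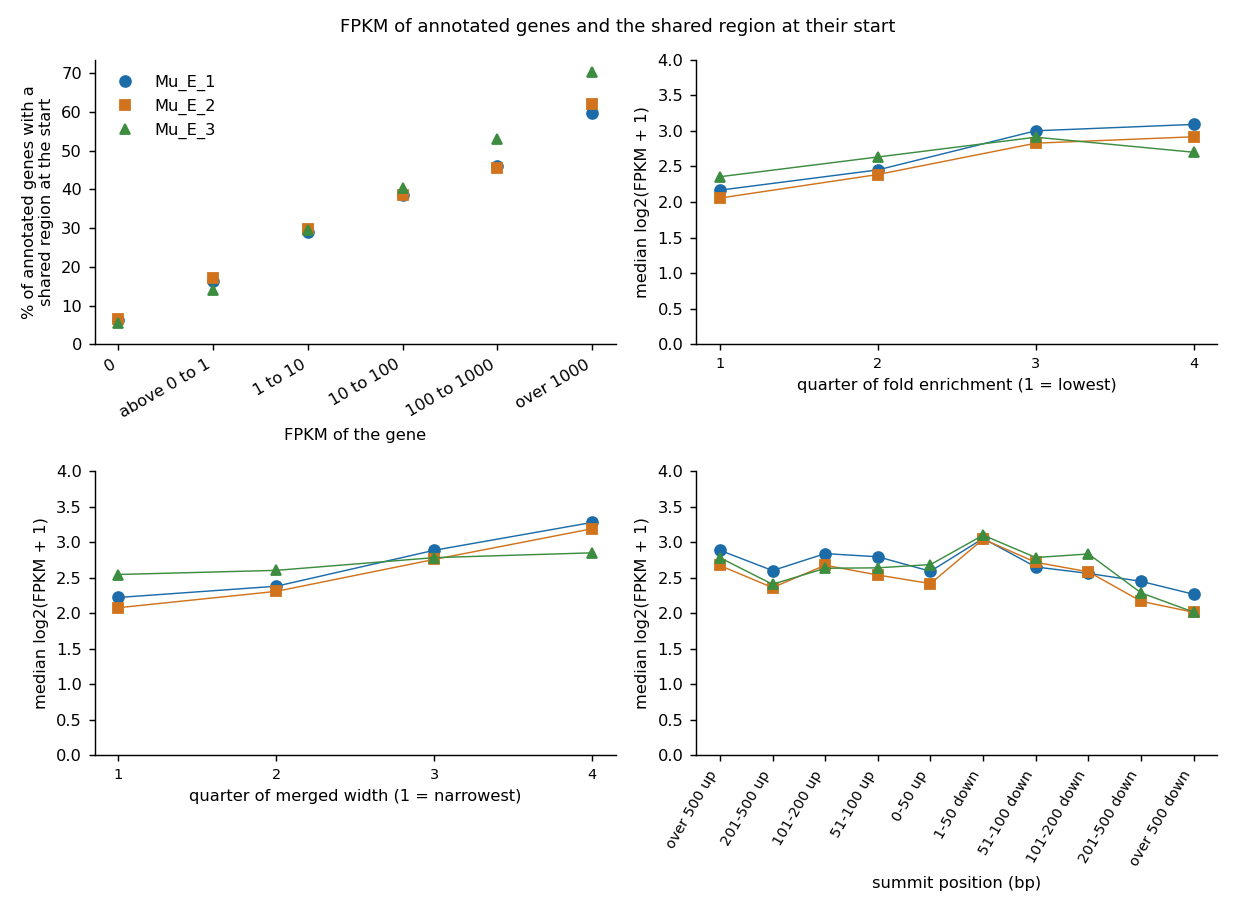
Expression of annotated genes and the shared region at their start in each RNA-seq library: the percentage of genes with such a region by FPKM class (upper left), and the median log2(FPKM + 1) of the genes by fold enrichment (upper right), by merged width (lower left) and by summit position in bp (lower right). The share is higher in every next FPKM class; the difference by fold enrichment and width is smallest in Mu_E_3, and the highest median by position is that of summits 1 to 50 bp downstream.

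The 8 regions with the highest fold enrichment all lay at genes of low expression. The highest was at evm.TU.JACDRO010000509.1.1, at 9251 to 9889 on a short unplaced sequence, with 21.0, 23.3 and 22.6 in the 3 libraries. Its summit lay inside the gene, 385, 382 and 382 bp downstream of the start, and the gene had 3.69, 1.51 and 0.597 FPKM. The region at evm.TU.CM024163.1.552, at 20095120 to 20095838 of sequence CM024163.1, had 22.9, 18.8 and 22.0. Its summit lay 406, 420 and 411 bp upstream, and the gene was close to silent with 0.485, 0.170 and 1.06 FPKM.

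The region at evm.TU.CM024146.1.705, at 23693610 to 23694775, had a fold enrichment of 19.1, 20.5 and 20.3 with the summit 147, 158 and 154 bp upstream, and 3.28, 5.17 and 2.69 FPKM. At evm.TU.JACDRO010001613.1.1 the values were 19.2, 19.5 and 20.7, and the gene was listed at 0 FPKM in all 3 libraries. At evm.TU.JACDRO010001822.1.1 they were 18.8, 17.8 and 21.8, with 0.796, 2.51 and 0 FPKM. All 3 regions were strong in every library, and no gene among them passed 5.17 FPKM in any crab.

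The other 3 were alike. The region at evm.TU.CM024117.1.267 had a fold enrichment of 21.0, 18.0 and 19.2 and 0.780, 1.23 and 1.14 FPKM. That at evm.TU.CM024121.1.308 had 18.8, 21.0 and 18.3, with 1.11, 2.09 and 1.53 FPKM. That at evm.TU.CM024123.1.202 had 17.3, 19.9 and 20.4, with 0.437, 0.230 and 0.080 FPKM. In all of these 8 regions the strongest summit was more than 100 bp from the start in every library. The FPKM of these genes rest on 0 to 19 fragments per library.

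The 8 genes with a shared region and the highest expression had fold enrichments between 2.74 and 9.91. Of these, 2 were under the 5th percentile of the regions at starts in 1 or more libraries. Others, evm.TU.CM024119.1.475 and evm.TU.CM024127.1.179, were above the median of the regions at starts in every library. The most abundant gene, evm.TU.CM024149.1.29, had 99463, 100758 and 18120 FPKM and a fold enrichment of 6.13, 5.21 and 7.04. Its region, at 587432 to 588769 of CM024149.1, also touched the start of another gene, and the summit lay 146, 125 and 134 bp upstream. The gene evm.TU.CM024102.1.206 had 62273, 76688 and 14195 FPKM with a fold enrichment of 4.45, 2.75 and 4.20 and the summit 91, 92 and 89 bp upstream. The gene evm.TU.CM024164.1.214 had 27641, 34501 and 5613 FPKM with 3.60, 3.11 and 3.25, below the median of all regions at starts in each library.

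The gene evm.TU.CM024119.1.475 had 23243, 25934 and 4812 FPKM with a fold enrichment of 8.20, 6.06 and 8.26 and the summit 76, 89 and 84 bp upstream. For evm.TU.CM024107.1.221 the FPKM were 18283, 21370 and 6584, and the fold enrichment 4.29, 4.96 and 4.17, with the summit within 13 bp of the start in every library. For evm.TU.CM024127.1.179 the FPKM were 22140, 19578 and 2283, and the fold enrichment was 9.26, 6.04 and 9.91, the highest of these 8. In all 3 genes the FPKM of Mu_E_3 was the lowest, and the FPKM divisor of that library is also the largest relative to its fragments.

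For evm.TU.CM024117.1.149 the FPKM were 7525, 28006 and 6858, with a fold enrichment of 2.78, 3.14 and 2.74 and the summit 826, 848 and 861 bp upstream. For evm.TU.CM024167.1.147 they were 13038, 14281 and 1641, with 4.79, 3.45 and 5.40. In 6 of these 8 genes the lowest fold enrichment was that of Mu_E_2. Transcripts of this abundance in muscle are usually those of contractile and energy proteins, but the names of these genes are not given in the files.

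**Figure D5:**
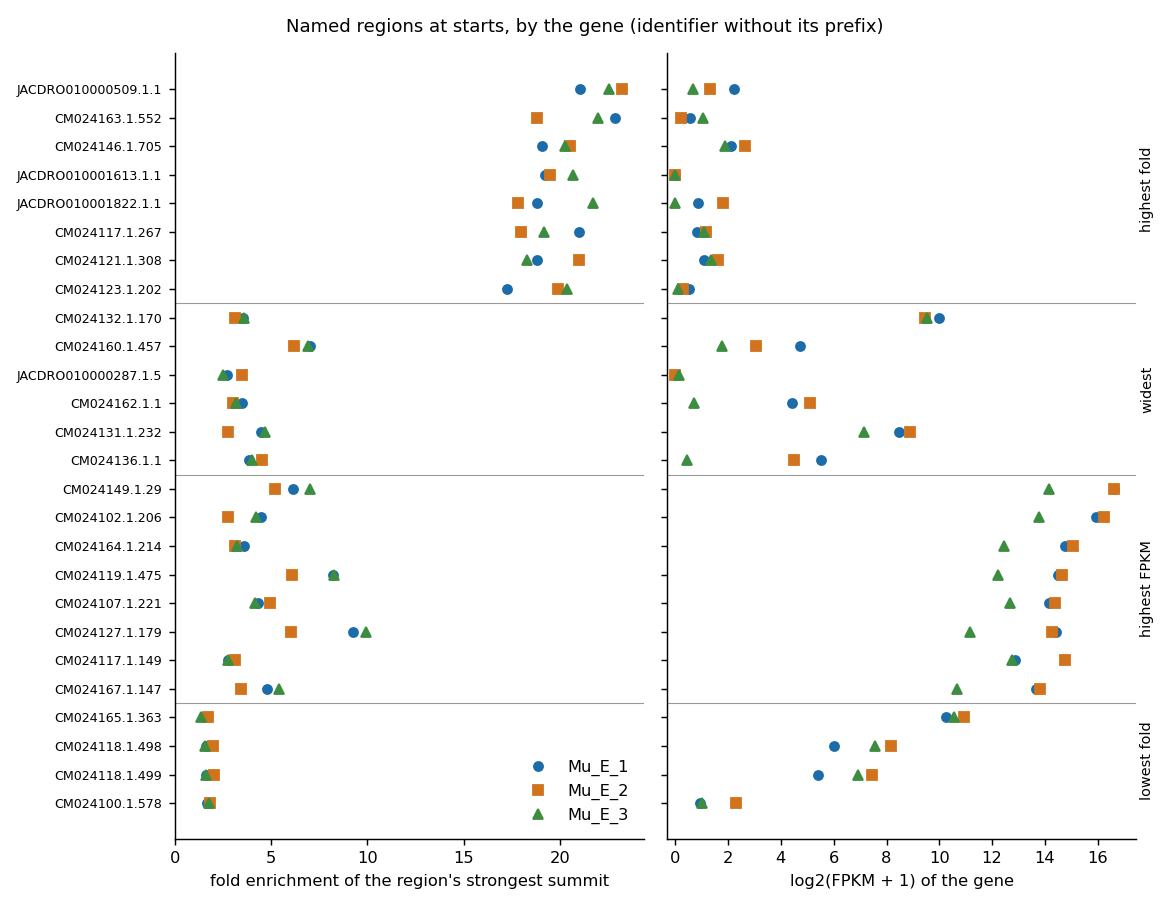
Fold enrichment of the strongest summit (left) and log2(FPKM + 1) of the gene (right) in each library for the 8 regions with the highest fold enrichment, the 6 widest regions, the 8 genes with the highest FPKM and the 4 regions with the lowest fold enrichment. The 8 regions of highest fold enrichment sit at genes with FPKM of 5.17 or less, and the most abundant genes have fold enrichments between 2.74 and 9.91.

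The widest regions were made of many summits. The widest, 3840 bp at 6785064 to 6788903 of CM024132.1, lay at evm.TU.CM024132.1.170 and held 8, 7 and 8 summits. Its fold enrichment was 3.55, 3.13 and 3.58, low for a region at a start, while the gene was abundant with 1021, 711 and 745 FPKM. The region at evm.TU.CM024160.1.457 was 3139 bp wide and had 6.99, 6.20 and 6.90, with 25.3, 7.35 and 2.41 FPKM. The region at evm.TU.CM024131.1.232 was 2846 bp wide with 4.49, 2.73 and 4.67, and its gene had 354, 477 and 141 FPKM.

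The RNA of the other 3 of the 6 widest was low in at least 1 crab. At evm.TU.JACDRO010000287.1.5, with 3094 bp, the FPKM were 0, 0 and 0.111. At evm.TU.CM024162.1.1, with 2856 bp, they were 20.5, 33.7 and 0.650, and at evm.TU.CM024136.1.1, with 2789 bp, they were 45.3, 21.8 and 0.344. The latter regions begin at positions 7412 and 1435, close to the end of their assembled chromosomes. Their genes were lowest in Mu_E_3, where the fold enrichment was not the lowest of the libraries. It was 3.50, 3.03 and 3.16 at the former and 3.86, 4.51 and 3.98 at the latter.

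None of the 4 regions with the lowest fold enrichment lay at a gene listed at 0 FPKM. In the ranking of all regions at 1 start, the lowest of the 4 groups had the most genes at 0 in all libraries, 9.30%. The lowest fold enrichment was 1.49, 1.71 and 1.34 at evm.TU.CM024165.1.363, where the gene had 1213, 1977 and 1509 FPKM. Next came the neighbours evm.TU.CM024118.1.498, with 1.60, 1.98 and 1.56, and evm.TU.CM024118.1.499, with 1.59, 2.01 and 1.60. Their FPKM were 63.8, 288.3 and 187 for the former and 41.0, 174 and 121 for the latter. They rest on 189, 813 and 1520 fragments and on 68, 275 and 552, so both genes were lowest in Mu_E_1 on either scale, while the highest library was Mu_E_2 by FPKM and Mu_E_3 by fragments. The region at evm.TU.CM024100.1.578 had 1.68, 1.85 and 1.79 and the gene 0.922, 3.87 and 1.01 FPKM, which rest on 1, 4 and 3 fragments. In all 4 regions Mu_E_2 had the highest fold enrichment, though by small margins.

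Of 13 genes that the study names by identifier in its account of G protein-coupled receptor signaling, 4 had a shared region at the start, set against 21.5% of all annotated genes. The study chose some of these genes in comparisons that used these libraries. The first, evm.TU.CM024134.1.314, is called mth2 by the study. In fruit flies the Methuselah family are membrane receptors of the G protein-coupled class. Its region was 277 bp wide, at 13427454 to 13427730 of CM024134.1, and the summit lay 55, 40 and 53 bp upstream. The fold enrichment was 4.45, 7.13 and 7.54 and the gene had 12.6, 20.0 and 9.65 FPKM.

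The gene evm.TU.CM024137.1.63 is called Kpna6 by the study. In mammals this name stands for a karyopherin alpha, an adaptor that carries proteins into the nucleus. Its region had a fold enrichment of 7.76, 4.19 and 6.27, with 3.71, 4.55 and 2.55 FPKM. The strongest summit was 333 and 332 bp upstream in Mu_E_1 and Mu_E_3, and 598 bp upstream in Mu_E_2, where another summit of the region was the higher.

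For evm.TU.CM024099.1.306 and evm.TU.CM024125.1.103 the study gives no name and reports no receptor activity by annotation. It lists both only in the post-molt to inter-molt comparison, which used no library of the molt period. The region at evm.TU.CM024099.1.306 had a fold enrichment of 9.43, 8.72 and 8.84, and its summit lay 5, 5 and 8 bp upstream of the start. The gene had 14.7, 3.03 and 2.87 FPKM, so Mu_E_1 was highest in both values. The region at evm.TU.CM024125.1.103 had 7.49, 9.16 and 8.04, with 3 summits in every library, and the gene had 359, 454 and 98.1 FPKM.

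Genes with a shared region at the start varied somewhat less between the crabs in their RNA. Over genes with an FPKM of 1 or more in all libraries, and after the median of each library was removed, the SD of log2 FPKM had a median of 0.647 for the 377 genes with such a region and a mean FPKM over 100. For the 352 genes without one it was 0.834. Between 30 and 100 FPKM these values were 0.639 and 0.700, between 10 and 30 they were 0.597 and 0.647, and between 3 and 10 they were 0.629 and 0.676. Up to 3 FPKM they were 0.515 and 0.523. The order was the same in all 5 classes, and the difference was not tested because the 3 libraries give 1 SD per gene.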

How the data were processed

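Muscle from the walking legs of 3 crabs gave 3 ATAC-seq and 3 RNA-seq libraries. For ATAC-seq the authors used skewer for trimming, BWA for alignment to the nuclear genome and MACS2 for calling peaks and their summits, library by library; a shift for the transposase is not given in the sources used here. The deposited peak lists hold a score (not used), the fold enrichment as a ratio to local background, the −log10 p-value (not used) and the −log10 q-value. The deposited FPKM were made by the authors with HISAT2 2.0.5 and featureCounts 1.5.0-p3, over gene models whose positions stand in the same table. No genome or annotation of this assembly was used, and positions are as in the deposited lists, on the assembly the authors aligned to.

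Intervals were merged at an overlap of 1 bp or more. In each library a region took the highest fold enrichment among its summits, that summit's position and the summed width of its peaks. The start was the first base of the gene on its strand, and the nearest touched start was used. Expression was compared as log2(FPKM + 1). Whole fragments were recovered from FPKM and length, where a value within 0.05 of an integer counted as whole. In each library a difference of medians was formed, and the 3 differences were tested by a two-sided exact sign-flip permutation test, for which 0.25 is the smallest p. The steps were tested on simulated data. Python 3.11.15, numpy 2.4.6, pandas 2.3.3 and matplotlib 3.10.9 were used. Identifiers that join several gene models numbered 276, of which 107 had a shared region at the start.

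The regions and lists were chosen with earlier results of these data known. Genes named are the 8 regions of highest and the 4 of lowest mean fold enrichment, the 6 widest, the 8 genes of highest mean FPKM and those the study names. The lists of marker genes fixed for muscle and other tissues could not be applied without gene names. Alternatives covered the window, the peak threshold, the sharing rule, the gene set, the sequences, regions at 1 start, the summary per region, the pseudocount, a filter on low FPKM, FPKM on each library's own fragments, gene length and each library left out. The midpoint rule and models whose length is not a multiple of 3 were added after the data were seen.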

Additional observations from a re-analysis of the deposited data

Results flagged for a closer look

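Outside the annotated genes, 766 shared regions touched the start window of genes that were added to the annotation and of no annotated gene. In the main comparisons above these regions were counted among the 25213 shared regions elsewhere. Their starts were used only in the alternative with the starts of all listed genes. The regions belonged to 750 added genes, had a median merged width of 687 bp and a median fold enrichment of 5.18, 5.27 and 5.41 in the 3 libraries. The median FPKM of these 750 genes was 0.293, 0.194 and 0.255, while that of all 7357 added genes was 0, 0 and 0.032, of which 11.1% had a shared region at the start.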

How the results depend on the processing

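Of 147 alternative values over 10 results, 139 were labelled as unchanged. These include 11 counts of regions, which have no direction and only had to stay near the main count. With regions at 1 start only, the expression differences by fold enrichment, width and side equal the main ones by construction. The other values labelled as unchanged kept the direction of the mean, but not always in most libraries. The downstream minus upstream difference without the second ATAC-seq library, 0.005, had that direction in 1 of 3 libraries. The strand difference on the numbered chromosomes, −0.67 bp, also had it in 1 of 3. The strand difference in summit position, −1.33 bp, was 0.33 bp with a window of 250 bp, 1.17 bp with 1000 bp, 4.0 bp with only the peaks whose q-value is at most 1e-05, 1.67 bp with the midpoint rule and 3.33 bp with models whose length is not a multiple of 3. Leaving out each ATAC-seq library gave −1.0 to 0 bp. The expression difference between the highest and lowest fold enrichment was −0.021 with the stricter q-value, 0.27 with the median fold enrichment and 0.68 to 0.94 without each ATAC-seq library. The downstream minus upstream difference was −0.10 with all listed genes, 0.25 with the stricter q-value, 0.40 with models whose length is not a multiple of 3, and 0.005 to 0.19 without each ATAC-seq library. The causes were not tested. The expression difference between genes with and without a shared region was 3.35 with a pseudocount of 0.1, 0.61 among genes with a mean FPKM of 1 or more and 1.87 on each library's own fragments. The log2 fold enrichment difference was 0.12 with the median fold enrichment. The number of regions ran from 3675 with the stricter q-value to 5340 with all listed genes, the width difference from 120 to 163 bp, the share downstream from 39.7% to 46.1% and the expression difference by width from 0.57 to 1.08. No paired analysis was possible because the groups are 2 assays of 1 condition with different measures, so no difference between them was formed. Regions were related to the expression of their genes, but no test used the pairing of the assays by crab. With 3 libraries no test can pass 0.05, so the side of a threshold says nothing on stability. The peak lists hold no read depth. By the study's own account Mu_E_2 is the shallowest ATAC-seq library.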
